A study of Mus musculus with 12 samples.

Results

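The genes described here are those of cholesterol synthesis, transport, storage and export, with the regulators that set their expression. They were chosen as a list of 30 gene symbols, and a gene entered when its symbol stood in the deposited gene table. By that match 29 of the 30 genes were found, among 39017 genes in the table. The exception was Msmo1, which the table holds under the older symbol Sc4mol, matched by its identifier ENSMUSG00000031604. It is described but not counted. All 29 genes passed the filter on low counts, which kept 19370 genes of the whole table.

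RNA was measured in 12 bulk mammary tumours, 3 in each of 4 groups. The tumours grew from NIC cells, a murine breast cancer line that carries an ErbB2 oncogene and whose p66Low form lacks p66ShcA, the longest protein made by the Shc1 gene. The p66High cells overexpress p66ShcA constitutively. Female FVB/N mice, 8 to 12 weeks old, received the cells in the fourth mammary fat pad, and the groups were p66High aggressive, p66Low aggressive, p66High parental and p66Low parental. Aggressive cells had gone through 2 rounds of growth and explant from the fat pad and were described by the submitters as growing and spreading faster than the parental cells. All groups share the NIC background, the host strain and the injection site. Tumours are named below by their group and a replicate number that only counts them.

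Cells make cholesterol from acetyl-CoA through mevalonate, isoprenoids, squalene and lanosterol. The transcription factor SREBP2, the product of Srebf2, switches on nearly every enzyme of that route when sterols in the endoplasmic reticulum run low. Scap carries SREBP2 to the Golgi apparatus for activation and the Insig proteins hold it back. In the opposite direction the liver X receptors, encoded by Nr1h3 and Nr1h2, are activated by oxysterols and switch on the exporters Abca1 and Abcg1. Macrophages are rich in Abca1, Abcg1 and Nr1h3, and dividing cells need cholesterol for new membrane.

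The libraries held 17368192 to 76103880 counts in genes. Shc1, the gene whose product was overexpressed, had 223 to 774 CPM (counts scaled to library size) in the 6 p66High tumours, against 59 to 69.9 CPM in the 6 p66Low tumours. The epithelial label held in every tumour, with 572 to 928 CPM of Epcam, 576 to 1010 CPM of Krt8 and 440 to 839 CPM of Krt18, while Krt19 stood at 0.173 to 9.75 CPM. Lymph node stroma genes set 3 libraries apart: they summed to 173 and 249 CPM in p66Low aggressive replicates 1 and 2 and to 55.5 CPM in p66High parental replicate 3, against at most 1.76 CPM in the other 9 tumours. Calls of members that are lost when these lymph-node-rich libraries are left out are named with the value without them. In each p66High group replicates 1 and 2 have the same number in their titles, parental and aggressive alike, and whether each pair came from 1 mouse is not given in the labels. Calls of members that are lost when each pair is summed to 1 sample are named as well. Over all tested genes of chromosome 1 the median log2 difference of p66High against p66Low was 0.44 in parental and 0.37 in aggressive tumours, and over chromosome 15 it was -0.41 in parental and 0.03 in aggressive tumours. These chromosome medians are set beside each member that lies there. The 4 comparisons share tumours in pairs, so their values for a gene are not independent.

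Per length of transcript, the most abundant member was Npc2, which carries cholesterol inside the lysosome, with a median level of 37.1 RPKM (CPM per kilobase of exon) and a range of 26.9 to 42 over the 12 tumours. Pmvk and Hmgcs1, enzymes of the mevalonate stage, followed with median levels of 24.3 and 22.8 RPKM, and their ranges, 18.2 to 32.6 and 16.2 to 29.9 RPKM, overlapped each other and that of Npc2. The lowest was Nr1h3, the liver X receptor alpha, with a median level of 2.13 RPKM. It also had the widest spread, from 0.992 to 3.89 RPKM, a 3.92-fold range. Abca1, the exporter that loads cholesterol onto apolipoprotein A-I, came next in spread, with levels of 6.69 to 21.7 RPKM and a 3.24-fold range. The narrowest range was that of Scap, 1.39-fold.

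The test was edgeR's quasi-likelihood test over all 19370 genes in 4 groups, with Benjamini-Hochberg adjustment and a threshold of 0.05 on the adjusted p. Of the 29 members, 9 passed in at least 1 of 4 comparisons or in their interaction, 5 of them more than once, and 20 passed in none. In p66High against p66Low parental tumours, 3 members were higher (Npc2, Nr1h3 and Soat1) and 1 was lower (Srebf2), where 8.08% of all genes were called (3.98% higher and 4.10% lower). Between p66High and p66Low aggressive tumours 1 was higher (Insig2) and 1 lower (Abca1), where 21.0% of all genes were called (8.92% higher and 12.1% lower). In p66Low tumours, aggressive against parental, 3 were higher (Soat1, Nr1h3 and Npc2) and 1 lower (Scap), where 16.6% of all genes were called (9.60% higher and 7.03% lower). In p66High tumours, aggressive against parental, 1 was higher (Stard4) and 1 lower (Abca1), where 5.94% of all genes were called (3.11% higher and 2.82% lower). The interaction, the difference between the p66High against p66Low values of aggressive and parental tumours, was positive and called for Stard4 and negative and called for Abca1, Abcg1 and Nr1h3, where 12.4% of all genes were called (4.37% positive and 7.99% negative). In order of the same 4 comparisons, the groups did not overlap for 5 members that were higher and 6 lower, 3 and 3, 3 and 1, and 7 and 5, and the shares of all genes whose groups did not overlap were 29.9%, 38.2%, 32.8% and 32.6%. Scaling by library size alone moved the share of higher genes among all calls to 73.6%, against 57.7% with the normalization used here, for selection in p66Low tumours, and to 23.3%, against 35.4%, for the interaction. Under that scaling 4 calls were lost, those of Scap (adjusted p = 0.0978), of Srebf2 in parental tumours (0.0739), of Stard4 in p66High tumours (0.0794) and of the interaction of Stard4 (0.0524), while Soat1 passed in p66High tumours and Npc2 in the interaction.

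**Figure D1:**
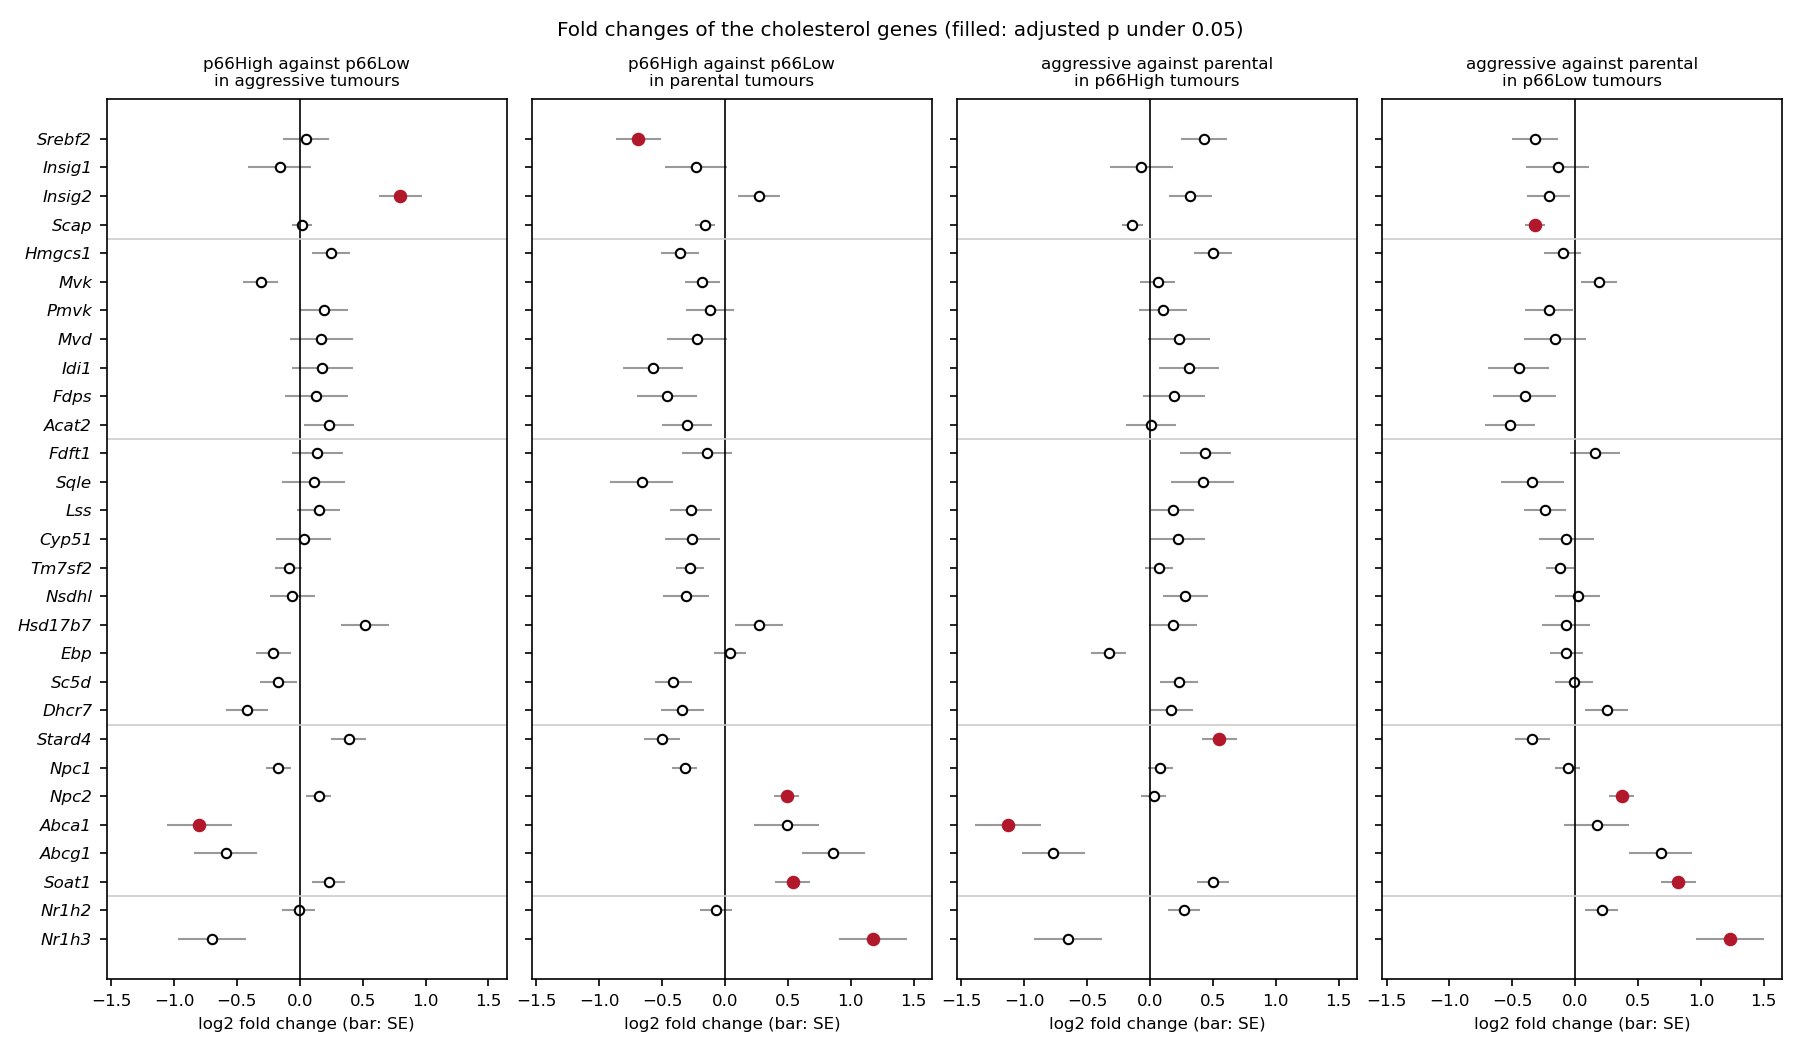
Log2 differences of the cholesterol genes in 4 comparisons, ordered by role, with bars of 1 standard error and filled points where the adjusted p was under 0.05. The synthesis enzymes lie between -0.66 and 0.52 with no filled point. The filled points lie among the regulators, the transport, storage and export genes and Nr1h3.

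None of the 17 synthesis enzymes passed in any comparison; the comparisons below give how many had an unadjusted p under 0.05. The summed level of the 17 enzymes was 930, 694 and 888 CPM in p66High aggressive tumours, 803, 819 and 733 CPM in p66Low aggressive tumours, 690, 693 and 760 CPM in the p66High parental group, and 1060, 620 and 960 CPM in the p66Low parental group. The group means were 837, 785, 715 and 881 CPM in that order, and the p66Low parental group held both the highest and the lowest sum of all 12 tumours. In its replicate 2, all 17 enzymes were the lowest of the group, and in its replicate 1, 15 of the 17 were the highest. Among the p66High aggressive tumours replicate 2 was lowest for 16 of the 17. The median within-group SD of the enzymes on the log2 scale was 0.24 in p66High aggressive and 0.42 in p66Low parental tumours, against 0.16 and 0.18 over all tested genes of the same tumours. In p66Low aggressive and p66High parental tumours it was 0.13 and 0.12, against 0.18 and 0.17 over all genes. For all genes a small constant was added to CPM before the log, and for the enzymes it was not. The SDs of enzymes and of all genes are therefore not measured alike.

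**Figure D2:**
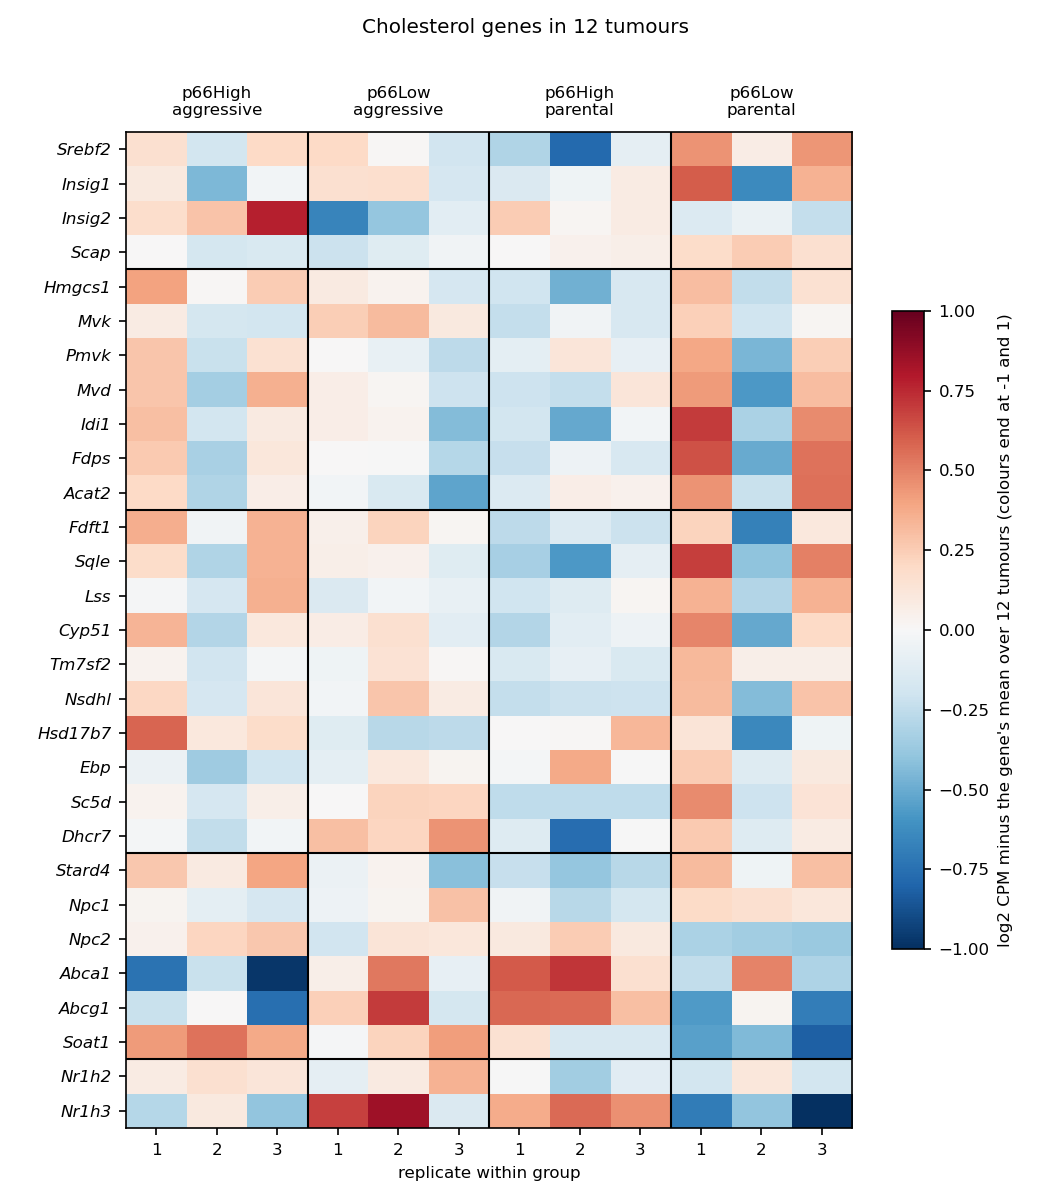
Log2 CPM of each cholesterol gene in each of the 12 tumours, centred on the gene's mean and ordered by role. Replicate 2 of the p66Low parental tumours and replicate 2 of the p66High aggressive tumours are low down the block of enzymes.

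Markers of dividing cells varied between the tumours as well. The summed level of 8 cycling markers was 1110, 922 and 1020 CPM in p66High aggressive, 1180, 852 and 708 CPM in p66Low aggressive, 800, 726 and 816 CPM in the p66High parental group, and 1150, 624 and 1190 CPM in p66Low parental tumours. The lowest tumour of all 12 was the same for both sums, replicate 2 of the p66Low parental group. In p66High tumours all 8 cycling markers were higher in every aggressive tumour than in every parental one, as 16.5% of all genes were, and none passed in edgeR (1 had an unadjusted p under 0.05). Their part in the enzyme levels was not tested. In bulk tumours fewer cells of a type and less RNA per cell cannot be told apart, here or in any value below.

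**Figure D3:**
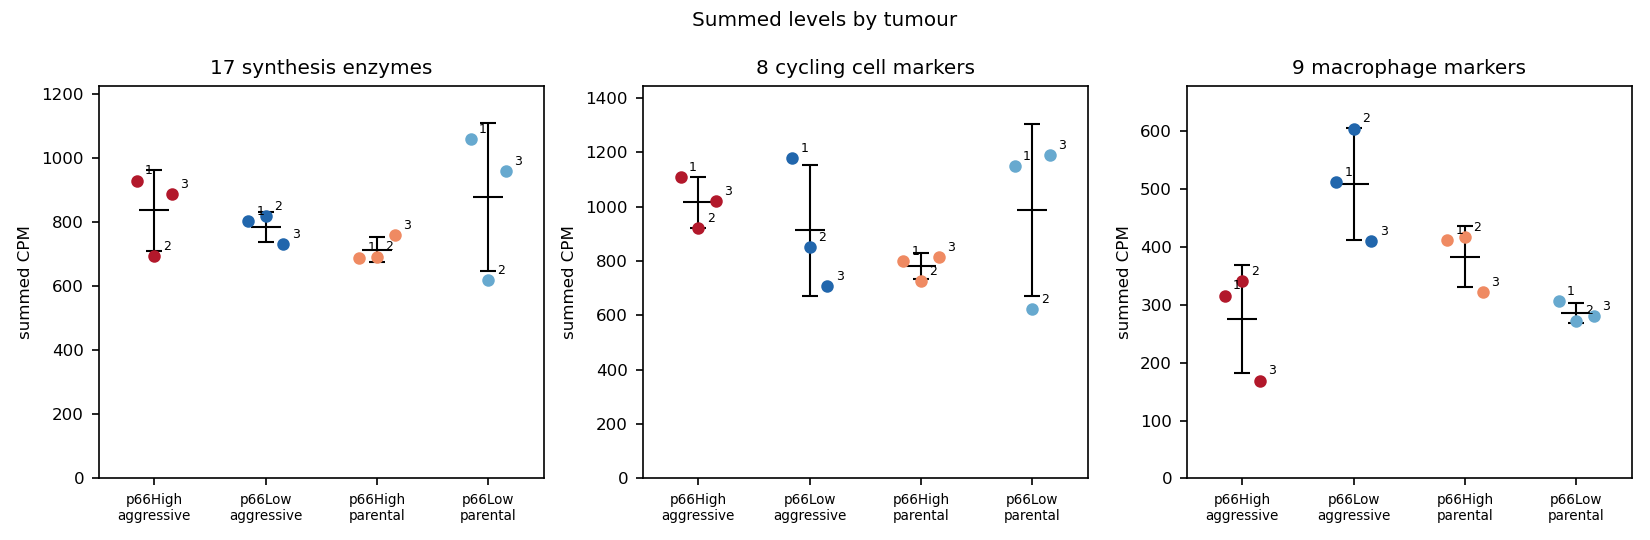
Summed CPM of 17 synthesis enzymes, 8 cycling markers and 9 macrophage markers in each tumour, with points numbered by replicate and the group mean with its SD. Replicate 2 of the p66Low parental tumours is lowest in its group for all 3 sums.

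The enzymes of the first stage turn acetyl-CoA into mevalonate and isoprenoid units. Hmgcs1, which joins acetoacetyl-CoA and acetyl-CoA, had 137, 104 and 123 CPM in p66High aggressive tumours, against 90.2, 74.2 and 92.8 CPM in p66High parental tumours. Every aggressive tumour lay above every parental one, and the log2 difference was 0.50 (SE 0.15, adjusted p = 0.0759), short of the threshold. It passed there without p66Low parental replicate 2 (adjusted p = 0.0433) and with DESeq2 (adjusted p = 0.0335). In p66Low tumours Hmgcs1 had 110, 106 and 92.1 CPM in the aggressive group, against 128, 87.1 and 115 CPM in the parental group, and these overlapped. Idi1, the isomerase that supplies the reactive isoprenoid unit, had 37.6, 30 and 42.1 CPM in p66High parental tumours, against 69.6, 34.4 and 59.3 CPM in p66Low parental tumours, with a log2 difference of -0.57 (SE 0.24, adjusted p = 0.178). Replicate 2 of the p66Low group fell among the p66High tumours. In p66Low aggressive tumours Idi1 had 44.8, 43.8 and 31.6 CPM. The log2 difference from p66Low parental tumours was -0.45 (SE 0.24, adjusted p = 0.238). Acat2, which despite its name is the acetoacetyl-CoA thiolase that starts the route, had 43, 39.3 and 30.4 CPM in p66Low aggressive tumours, against 59.6, 37.5 and 64 CPM in p66Low parental tumours, a log2 difference of -0.52 (SE 0.20, adjusted p = 0.0987). Without p66Low parental replicate 2 it passed in edgeR (adjusted p = 0.0236). Pmvk, the phosphomevalonate kinase, lies 24.5 kb from Shc1 on chromosome 3 and did not pass in either p66High against p66Low comparison, with log2 differences of 0.19 in aggressive and -0.12 in parental tumours.

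Later enzymes close squalene into lanosterol and trim it to cholesterol. Sqle, the squalene epoxidase that is a rate-limiting step, lies on chromosome 15 and had 66.1, 55.9 and 78.2 CPM in p66High parental tumours, against 135, 63.1 and 118 CPM in p66Low parental tumours. The log2 difference was -0.66 (SE 0.25, adjusted p = 0.132) beside the chromosome median of -0.41, and replicate 2 was again the p66Low tumour inside the p66High range. Cyp51, the lanosterol demethylase, had 59.5, 67.9 and 70.3 CPM in p66High parental tumours, against 102, 51.1 and 83.8 CPM in p66Low parental tumours, and the groups overlapped. Hsd17b7, which works with the demethylation enzymes as a sterol ketone reductase, lies on chromosome 1. It had 69, 49.7 and 52.3 CPM in p66High aggressive tumours, against 42.4, 38.2 and 38.5 CPM in p66Low aggressive tumours. These did not overlap, and the log2 difference was 0.52 (SE 0.19, adjusted p = 0.0696), beside a chromosome median of 0.37; without p66Low parental replicate 2 the adjusted p was 0.0255. Msmo1, the methylsterol oxidase counted outside the list, had 51, 36.1 and 39.1 CPM in p66High aggressive tumours, against 26.5, 28.5 and 28 CPM in p66High parental tumours, which did not overlap (log2 difference 0.61, adjusted p = 0.131).

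As a group, 15 of the 17 enzymes had a negative log2 difference in p66High against p66Low parental tumours, with a median of -0.28, against -0.01 over all genes. Hsd17b7 and Ebp were the exceptions, at 0.27 and 0.04. For 5 of the 17 the unadjusted p was under 0.05, as it was for 22.9% of all genes, and neither edgeR nor DESeq2 called any at an adjusted p under 0.05. This count rested on 1 tumour: without p66Low parental replicate 2, edgeR called 6 enzymes lower (Hmgcs1, Idi1, Fdps, Sqle, Nsdhl and Sc5d), while 9.65% of all genes were called, against 8.08% with it, and Sqle reached a log2 difference of -0.92 (adjusted p = 0.0105). In p66High aggressive against p66High parental tumours 16 of the 17 had a positive log2 difference, with a median of 0.19, against 0 over all genes; Ebp was the exception at -0.33. Here 3 had an unadjusted p under 0.05, against 22.7% of all genes, and DESeq2 called Hmgcs1 alone. The groups did not overlap for 4 enzymes that were higher (Hmgcs1, Fdft1, Nsdhl and Sc5d) and 1 that was lower (Ebp), where 32.6% of all genes had groups that did not overlap. The enzymes' medians were 0.13 in p66High against p66Low aggressive tumours and -0.10 in aggressive against parental p66Low tumours. In these, 3 and 1 enzymes had an unadjusted p under 0.05, against 33.4% and 30.9% of all genes, and none was called by edgeR or DESeq2. Without p66Low parental replicate 2, edgeR called Idi1, Fdps and Acat2 lower in aggressive against parental p66Low tumours, while 14.7% of all genes were called. In the interaction 14 of 17 were positive, with a median of 0.29, against 0.05 over all genes, and none passed in edgeR or DESeq2, although 3 had an unadjusted p under 0.05, against 28.5% of all genes; without p66Low parental replicate 2, 4 passed (Hmgcs1, Idi1, Fdps and Sqle), while 12.9% of all genes did.

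The enzymes share promoter letters that the list did not use. RefSeq's promoter table for the GRCm38.p6 build gave the 250 bases before the start of 23 of the 29 members, 14 of them enzymes. They were searched on both strands for CCAAT, the box of the factor NF-Y, which is known to act together with SREBP, and for 2 overlapping forms of the sterol element that SREBP binds, CACCCCAC and TCACNCCAC. CCAAT stood in 13 of the 14 enzyme windows (92.9%) and in 5 of the 9 windows of other members (55.6%), against 37.5% of 27025 genes with a window; Acat2 was the enzyme without it. CACCCCAC stood in 2 of the 14 enzyme windows, those of Hmgcs1 and Acat2, against 2.98% of all genes, and TCACNCCAC in that of Hmgcs1, against 1.22% of all genes. A match is a run of letters and not a bound site. The windows of 3 enzymes and of Abca1 are printed 5′ to 3′ on the gene's strand, to set enzyme promoters beside that of an exporter, with matches to the searched letters on either strand in capitals (ATTGG is CCAAT read on the other strand). They lie at chr13:119690101-119690350 on the plus strand for Hmgcs1, chr13:8885356-8885605 on the plus strand for Idi1, chr5:4104698-4104947 on the minus strand for Cyp51 and chr4:53159896-53160145 on the minus strand for Abca1.
Hmgcs1: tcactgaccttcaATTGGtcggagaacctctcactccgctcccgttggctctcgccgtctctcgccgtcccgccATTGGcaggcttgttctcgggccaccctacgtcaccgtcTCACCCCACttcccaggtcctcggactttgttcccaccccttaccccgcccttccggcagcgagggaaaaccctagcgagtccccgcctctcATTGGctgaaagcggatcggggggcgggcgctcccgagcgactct
Idi1: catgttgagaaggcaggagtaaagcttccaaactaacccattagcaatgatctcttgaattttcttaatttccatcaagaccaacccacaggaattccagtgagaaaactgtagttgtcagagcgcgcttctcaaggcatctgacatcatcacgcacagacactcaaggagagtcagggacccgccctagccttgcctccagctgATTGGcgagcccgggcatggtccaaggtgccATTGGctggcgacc
Cyp51: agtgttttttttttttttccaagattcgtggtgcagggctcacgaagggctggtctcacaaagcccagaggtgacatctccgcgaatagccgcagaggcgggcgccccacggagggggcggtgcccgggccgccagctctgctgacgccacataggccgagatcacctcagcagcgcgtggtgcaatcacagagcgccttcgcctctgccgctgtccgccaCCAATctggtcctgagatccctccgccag
Abca1: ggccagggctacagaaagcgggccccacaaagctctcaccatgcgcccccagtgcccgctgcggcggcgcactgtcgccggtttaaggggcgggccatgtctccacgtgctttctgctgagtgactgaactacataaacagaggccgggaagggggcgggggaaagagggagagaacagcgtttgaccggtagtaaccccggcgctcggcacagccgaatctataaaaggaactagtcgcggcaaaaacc
Hmgcs1 carries 3 matches to the NF-Y box and 1 stretch that both sterol forms match, in the capitals TCACCCCAC. Idi1 carries 2 of the box and Cyp51 carries 1, near the start. The window of Abca1 holds none of the searched letters.

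Of the 4 regulators, Srebf2, Insig2 and Scap each passed in 1 comparison and Insig1 in none. Srebf2 (chr15:82147181-82205379, GRCm38) had 60.6, 43.5 and 70 CPM in p66High parental tumours, against 102, 78.7 and 101 CPM in p66Low parental tumours. No tumour overlapped, and the log2 difference was -0.69 (SE 0.18, adjusted p = 0.0362), where the median of its chromosome was -0.41. It passed in 11 of 20 other settings. The adjusted p was 0.051 to 0.128 without p66High aggressive replicate 1, p66Low aggressive replicate 2, p66High parental replicates 1 or 2, or p66Low parental replicates 1 or 3, and 0.0918 with the pairs of shared title numbers summed. Srebf2 also missed the threshold in the fit of the 6 tumours compared alone. In aggressive tumours Srebf2 had 83.3, 65.7 and 85.6 CPM with high p66, against 85.7, 75.3 and 65.4 CPM with low p66, and the ranges coincided. The difference between the aggressive and parental values was 0.75 on the log2 scale (SE 0.25, adjusted p = 0.0766), with a chromosome 15 median of 0.44.

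Insig2, one of the proteins that hold Scap in the endoplasmic reticulum, lies on chromosome 1 (chr1:121304353-121332589). It had 51.7, 55.9 and 78.6 CPM in p66High aggressive tumours, against 28.9, 35.1 and 42.6 CPM in p66Low aggressive tumours. The groups did not overlap, and the log2 difference was 0.80 (SE 0.17, adjusted p = 0.0067), against a chromosome 1 median of 0.37. It passed in 19 of 20 other settings; without the lymph-node-rich libraries, which leaves 1 p66Low aggressive tumour, it was 0.56 (adjusted p = 0.233). In parental tumours Insig2 had 54.6, 46.4 and 48.4 CPM with high p66, against 41.6, 43.6 and 38.7 CPM with low p66. These did not overlap either, but the log2 difference of 0.27 (SE 0.17, adjusted p = 0.365) was below the chromosome median of 0.44. Its relative Insig1, itself a target of SREBP, spread as the enzymes did. It had 51, 54.7 and 59.6 CPM in p66High parental tumours, against 85.5, 36.3 and 71.8 CPM in p66Low parental tumours, and passed in no comparison.

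Scap (chr9:110333288-110384950), the escort of SREBP, had 90.1, 96.2 and 102 CPM in p66Low aggressive tumours, against 119, 125 and 117 CPM in p66Low parental tumours. Every aggressive tumour was lower, by a log2 difference of -0.32 (SE 0.08, adjusted p = 0.0182), the smallest of the called differences. It did not pass without p66Low aggressive replicates 1 or 2 or p66Low parental replicate 3, with adjusted p of 0.0504 to 0.0699, or without the lymph-node-rich libraries (-0.23, adjusted p = 0.379). Nor did Scap pass in the fit of the 6 tumours compared alone. In p66High tumours Scap had 105, 92.6 and 94.4 CPM in the aggressive group, against 105, 108 and 109 CPM in the parental group.

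Of the 6 transport, storage and export genes, Npc2 and Soat1 passed as higher with high p66 in parental tumours and with selection in p66Low tumours. Npc2 (chr12:84754562-84773152) had 202, 226 and 202 CPM in p66High parental tumours, against 152, 149 and 146 CPM in p66Low parental tumours. The gap between the groups was wide compared with the spread inside them, and the log2 difference of 0.49 (SE 0.10, adjusted p = 0.012) passed in all 20 other settings. In p66Low aggressive tumours Npc2 had 166, 207 and 205 CPM, against the same p66Low parental values, a log2 difference of 0.37 (SE 0.10, adjusted p = 0.0284). That call was lost without p66Low aggressive replicates 2 or 3 or p66Low parental replicates 1 or 3 (adjusted p of 0.054 to 0.118) and without the lymph-node-rich libraries (adjusted p = 0.12). Npc1, the membrane partner of Npc2 and a gene of chromosome 18, went the other way in parental tumours. It had 69.5, 58.8 and 63.3 CPM with high p66, against 81.4, 79.9 and 77.4 CPM with low p66, without overlap, and its log2 difference of -0.32 (SE 0.10, adjusted p = 0.0877) did not pass.

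Soat1 (chr1:156424525-156474331), which esterifies cholesterol for storage in lipid droplets, was lowest in p66Low parental tumours and higher in each of the other groups. It had 76.7, 83.2 and 74.3 CPM in p66High aggressive, 56.5, 66.8 and 76.3 CPM in p66Low aggressive, 63.4, 51 and 51.1 CPM in the p66High parental group, and 39.1, 42 and 32.5 CPM in p66Low parental tumours. No p66Low parental tumour reached any other group. In p66Low tumours the aggressive against parental log2 difference was 0.82 (SE 0.14, adjusted p = 0.00307), beside a chromosome 1 median of 0, and it passed in all 20 other settings. In parental tumours the p66High against p66Low difference was 0.54 (SE 0.14, adjusted p = 0.03), beside a chromosome 1 median of 0.44. It did not pass without p66High parental replicate 1 or p66Low parental replicates 1 or 3, with adjusted p of 0.0691 to 0.123, or with the pairs of shared title numbers summed (adjusted p = 0.0723). In p66High tumours the aggressive group was higher than the parental one without overlap, by 0.50 (SE 0.13, adjusted p = 0.0511).

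Stard4, a cytosolic sterol carrier that SREBP2 induces and that lies on chromosome 18, had p66High against p66Low values of opposite sign in aggressive and parental tumours. It had 25.5, 22.5 and 27.8 CPM in p66High aggressive tumours, against 20.3, 21.7 and 15.8 CPM in p66Low aggressive tumours, without overlap. In parental tumours it had 18, 16.2 and 17.4 CPM with high p66, against 26.3, 20.5 and 26 CPM with low p66, again without overlap. The 2 log2 differences were 0.39 (adjusted p = 0.0776) and -0.50 (adjusted p = 0.057), neither past the threshold, and their own difference, the interaction, was 0.89 (SE 0.20, adjusted p = 0.0183). That interaction was lost without p66High aggressive replicate 3, p66High parental replicates 2 or 3, or p66Low parental replicates 1 or 3 (adjusted p of 0.0504 to 0.0631), with the pairs of shared title numbers summed (adjusted p = 0.0623) and without the lymph-node-rich libraries (1.19, adjusted p = 0.0656). Within p66High tumours Stard4 was higher in aggressive than in parental tumours by 0.55 (SE 0.14, adjusted p = 0.0451), a call close to the threshold that passed in 6 of 20 other settings. It failed without any 1 of the 3 p66High aggressive tumours, the 3 p66High parental tumours, p66Low aggressive replicate 1 or p66Low parental replicates 1 and 3, with adjusted p of 0.0576 to 0.176. It also failed without the lymph-node-rich libraries (0.57, adjusted p = 0.103), with the pairs of shared title numbers summed (adjusted p = 0.185) and under median-of-ratios scaling, library size scaling or no filter (adjusted p of 0.0538 to 0.0794).

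The liver X receptor Nr1h3 and the 2 exporters all had a negative interaction that passed: each p66High against p66Low value was negative in aggressive and positive in parental tumours. Nr1h3 (chr2:91184061-91202834) had 4.47, 5.81 and 4.14 CPM in p66High aggressive tumours, against 8.75, 9.78 and 4.92 CPM in p66Low aggressive tumours. In parental tumours it had 7.04, 8.06 and 7.47 CPM with high p66, against 3.35, 4.14 and 2.5 CPM with low p66. The parental groups did not overlap and differed by 1.18 on the log2 scale (SE 0.27, adjusted p = 0.0205). The aggressive groups overlapped through p66Low replicate 3, and the difference was -0.70 (SE 0.27, adjusted p = 0.0879). It was -0.94 without that tumour (adjusted p = 0.0133) and -0.02 without the lymph-node-rich libraries (adjusted p = 0.984), where that tumour alone is left of its group. In p66Low tumours Nr1h3 was higher in the aggressive than in the parental group by 1.23 (SE 0.27, adjusted p = 0.0111), and in p66High tumours the aggressive against parental value was -0.65 (adjusted p = 0.179). The interaction was -1.88 (SE 0.38, adjusted p = 0.0119).

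Of these Nr1h3 calls, the interaction passed in 18 of 19 other settings. It failed without the 3 lymph-node-rich libraries, at -1.22 (adjusted p = 0.177). Without the same libraries the difference of aggressive against parental p66Low tumours was 0.57 (adjusted p = 0.392), less than the 1.23 with them. The 2 highest Nr1h3 values of the p66Low aggressive group were in those libraries. That call also failed without p66Low aggressive replicate 2 (adjusted p = 0.0516) or p66Low parental replicate 3 (adjusted p = 0.0543), and in the fit of the 6 tumours compared alone. The p66High against p66Low call in parental tumours failed without any of the 3 p66High parental tumours or without p66Low parental replicates 1 or 3, with adjusted p of 0.0508 to 0.0966, and with the pairs of shared title numbers summed (adjusted p = 0.0775). Nr1h2, the liver X receptor beta, differed little. It had 53.9, 56.8 and 55.3 CPM in p66High aggressive tumours, against 50.6, 40 and 46.9 CPM in p66High parental tumours, and its log2 difference of 0.27 there (adjusted p = 0.241) was its largest in the 4 comparisons.

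Abca1 (chr4:53030787-53159895) had its lowest mean level in p66High aggressive tumours. It had 81.6, 117 and 69.3 CPM there, against 142, 197 and 129 CPM in p66Low aggressive tumours, without overlap. In p66High parental tumours Abca1 had 209, 224 and 152 CPM, and in p66Low parental tumours 115, 192 and 110 CPM. The aggressive against parental log2 difference in p66High tumours was -1.13 (SE 0.26, adjusted p = 0.0302), and the p66High against p66Low difference in aggressive tumours was -0.80 (SE 0.26, adjusted p = 0.0496). In parental tumours the p66High against p66Low value was 0.49 (SE 0.26, adjusted p = 0.291), and the interaction was -1.30 (SE 0.37, adjusted p = 0.0432). Set beside the enzyme sums, the tumour with the lowest enzymes had the highest Abca1 of its group in p66High aggressive and p66Low parental tumours, the lowest in p66Low aggressive tumours and the middle value in p66High parental tumours.

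The Abca1 calls were not firm. Between aggressive tumours the call was lost in the fit of the 6 tumours alone and when chromosomes 1 and 15 were kept out of the scaling. In p66High tumours the aggressive against parental call failed without p66High aggressive replicates 1 or 3 or p66High parental replicates 1 or 2 (log2 differences of -1.07 to -0.98, adjusted p of 0.0856 to 0.122) and with the pairs of shared title numbers summed (adjusted p = 0.132). The p66High against p66Low call in aggressive tumours failed without p66High aggressive replicates 1 or 3, p66Low aggressive replicates 1 or 2, p66High parental replicates 1 or 2 or p66Low parental replicate 1 (adjusted p of 0.0528 to 0.197) and with the pairs summed (adjusted p = 0.0669), and without the lymph-node-rich libraries it was -0.52 (adjusted p = 0.447). The interaction failed without p66High aggressive replicates 1 or 3, p66Low aggressive replicates 1 or 2, p66High parental replicates 1 or 2 or p66Low parental replicates 1 or 3 (adjusted p of 0.0577 to 0.11) and with the pairs summed (adjusted p = 0.087), and was -1.17 (adjusted p = 0.205) without the lymph-node-rich libraries.

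Abcg1 (chr17:31057675-31117988), which passes cholesterol to high-density lipoprotein, had mean levels of 38.9 CPM in p66High parental and 34.2 CPM in p66Low aggressive tumours. Its lowest mean was in p66Low parental tumours, at 21.5 CPM, against 22.8 CPM in p66High aggressive tumours. It had 23.9, 27.9 and 16.5 CPM in p66High aggressive tumours, against 32.9, 45.1 and 24.7 CPM in p66Low aggressive tumours, with overlap. In parental tumours it had 41.4, 41.2 and 34.2 CPM with high p66, against 18.8, 28.4 and 17.2 CPM with low p66, without overlap. The log2 differences were -0.59 (SE 0.25, adjusted p = 0.128) and 0.86 (SE 0.25, adjusted p = 0.0634), neither past the threshold, although DESeq2 called the second (adjusted p = 0.0147), as did edgeR without p66Low aggressive replicates 2 or 3 or p66Low parental replicate 2 (adjusted p of 0.0263 to 0.0472). The interaction of -1.45 (SE 0.36, adjusted p = 0.0248) passed, and it failed without p66High aggressive replicate 3, p66Low aggressive replicate 2, p66High parental replicates 1 or 2 or p66Low parental replicates 1 or 3 (adjusted p of 0.0508 to 0.0671) or with the pairs of shared title numbers summed (adjusted p = 0.0686). Without the lymph-node-rich libraries it was -1.06 (adjusted p = 0.212).

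**Figure D4:**
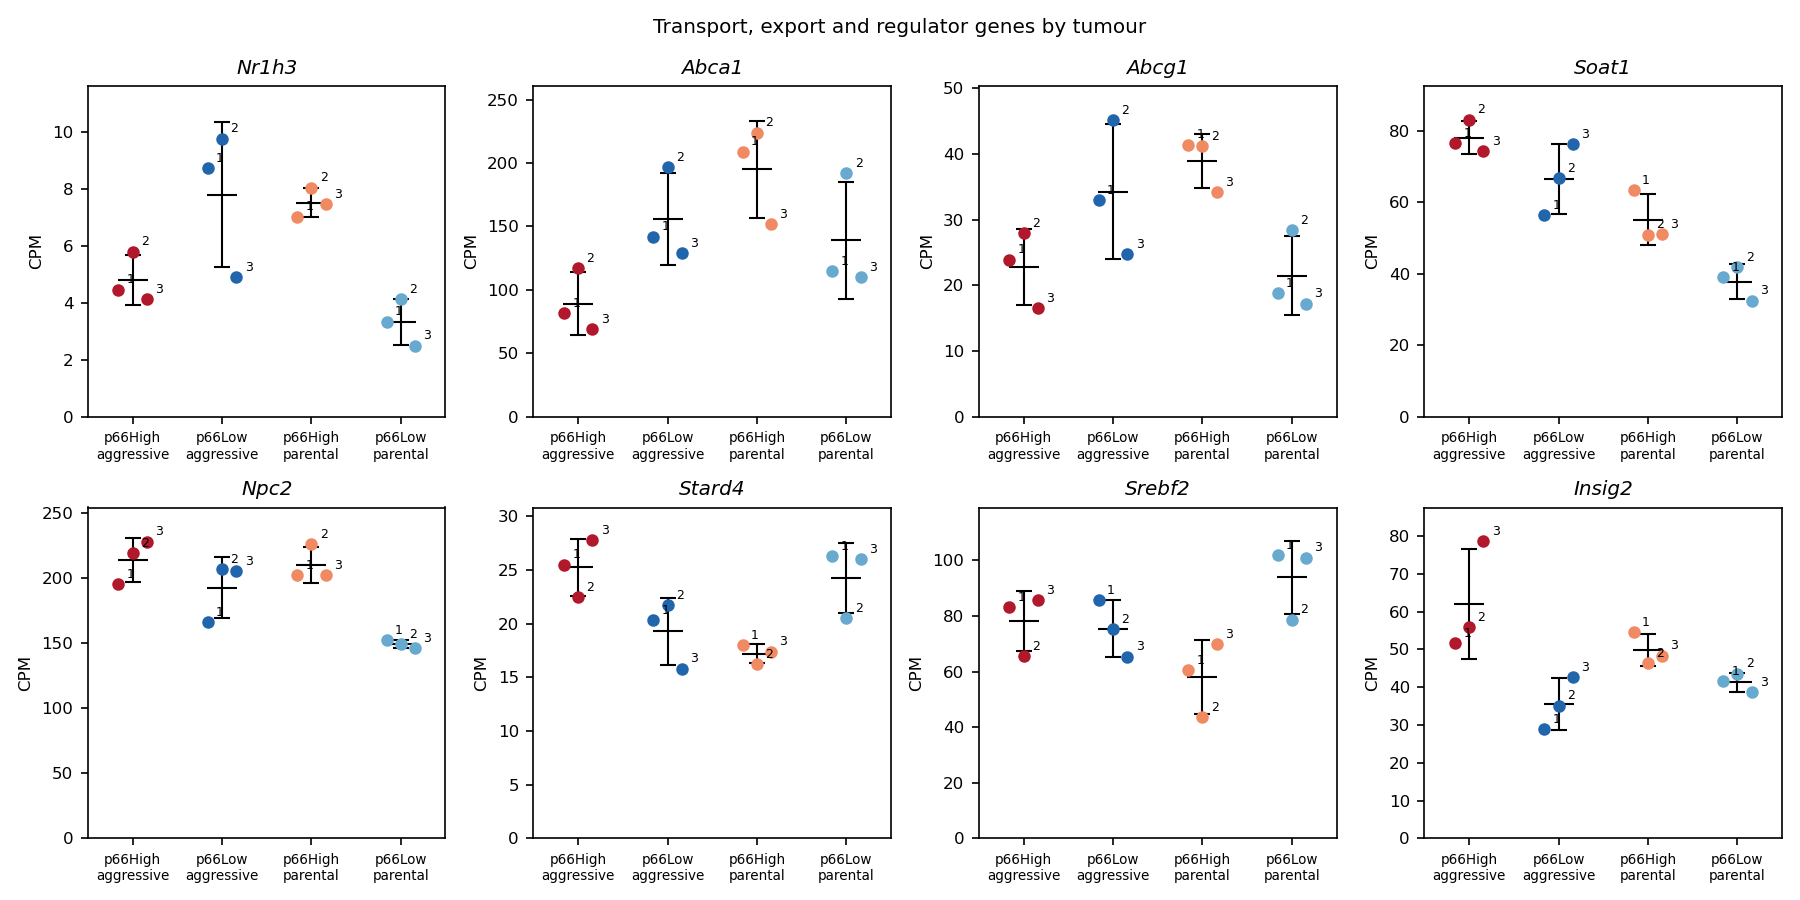
CPM of 8 cholesterol genes in each of the 12 tumours, with points numbered by replicate and the group mean with its SD (n = 3 each). Npc2 and Soat1 are lowest in p66Low parental tumours, Abca1 has its lowest mean in p66High aggressive tumours, and Nr1h3 is high in p66High parental tumours and in p66Low aggressive replicates 1 and 2.

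The number of macrophage markers called differed between the comparisons in which Nr1h3 or an exporter was called. Of 10 markers 9 were found, none was at 0 in any tumour, and their summed level was 169 to 341 CPM in p66High aggressive tumours, 410 to 605 CPM in p66Low aggressive tumours, 322 to 417 CPM in p66High parental tumours and 273 to 306 CPM in p66Low parental tumours. In p66High against p66Low aggressive tumours 6 of the 9 passed as lower, as 12.1% of all genes did. In aggressive against parental p66Low tumours 5 of the 9 passed as higher, as 9.60% of all genes did. Both comparisons use the p66Low aggressive group, whose replicates 1 and 2 were lymph-node-rich. No alternative setting was run for the markers. In parental tumours none passed between p66High and p66Low in edgeR, with 1 at an unadjusted p under 0.05. There 8 of the 9 were higher with high p66, with a median of 0.30, against -0.01 over all genes. The groups did not overlap for 4, all higher with high p66, as for 15.6% of all genes. The interaction was negative and called for 6 of the 9, as for 7.99% of all genes. In aggressive against parental p66High tumours, where Abca1 was -1.13, 1 of the 9 passed as lower and their median was -0.36. There 2.82% of all genes passed as lower. Replicate 2 of the p66Low parental group had the highest Abca1, Abcg1 and Nr1h3 of its group and the lowest macrophage sum, 273 CPM. The single markers were split in that tumour. Mrc1 had 44.8 CPM, against 88.9 and 77.8 CPM in replicates 1 and 3, and Cd163 and Cd68 were also lowest there. C1qa had 76.9 CPM, against 67.1 and 59.7 CPM, and Csf1r, Mertk, C1qb, C1qc and Fcgr1 were also highest there. T cell markers summed to 35.3 to 190 CPM in p66Low aggressive tumours, against 3.93 to 4.87 CPM in p66Low parental tumours. The 8 adipocyte markers summed to 8.76 to 148 CPM in p66High aggressive tumours, against 156 to 424 CPM in p66High parental tumours. Replicate 3 of the p66High aggressive group had 3 of them at 0, namely Adipoq, Retn and Lep. In p66Low tumours they summed to 37.1 to 412 CPM in the aggressive group, against 21.5 to 189 CPM in the parental group. All 8 were higher with high p66 in parental tumours (median log2 difference 2.04) and with selection in p66Low tumours (1.53), and none passed. The interaction was negative for all 8 and called for 1, where 7.99% of all genes were negative and called. The part of these cells in the levels of Nr1h3, Abca1, Abcg1, Npc2 and Soat1 was not tested.

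Around the members, 45 further genes of the pathway were tested, grouped as isoprenoid branch, SREBP processing, lysosome and ester storage, oxysterol enzymes and genes known to be controlled by liver X receptors. Their medians were -0.06, -0.14, -0.04 and -0.04 for p66High against p66Low in parental and in aggressive tumours and for selection in p66Low and in p66High tumours, against -0.01, 0.02, -0.02 and 0 over all genes. In parental tumours 1 of the 45 was higher with high p66 (Arl4c) and 5 were lower, among them Icmt, Soat2 and Coq2. There 8.08% of all genes were called. Arl4c, with a log2 difference of 0.84 (SE 0.13), lies on chromosome 1, whose median was 0.44 in this comparison. Soat2 was near the floor, with 0.135, 0.141 and 0.197 CPM with high p66, against 0.54, 0.406 and 0.39 CPM with low p66. It lies on chromosome 15, whose median was -0.41 in this comparison. Between aggressive tumours 1 was higher with high p66 (Gramd1b) and 7 were lower, among them Icmt, Hsd3b7, Rnf139, Ch25h, Cyp7b1 and Cyp27a1. There 21.0% of all genes were called.

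Icmt, which methylates prenylated proteins, had 50.3, 42.7 and 45 CPM in p66High aggressive tumours, against 74.5, 81.4 and 75.9 CPM in p66Low aggressive tumours. In parental tumours Icmt had 51.6, 55 and 52.8 CPM with high p66, against 90.1, 82.1 and 80.2 CPM with low p66. It was lower with high p66 in both, with log2 differences of -0.75 (SE 0.09, adjusted p = 0.000323) and -0.66 (SE 0.09, adjusted p = 0.00115). Icmt lies on chromosome 4. Of the oxysterol and bile acid enzymes 4 of 6 passed as lower with high p66 in aggressive tumours, as 12.1% of all genes did, and none in parental ones. Among them Ch25h, which makes an oxysterol that activates liver X receptors, had 0.812, 1.18 and 1.9 CPM in p66High aggressive tumours, against 4.59, 3.84 and 3.74 CPM in p66Low aggressive tumours (log2 difference -1.66, SE 0.37, adjusted p = 0.00922; without the lymph-node-rich libraries -1.53, adjusted p = 0.0803). Cyp7b1 had 0.609, 0.471 and 0.173 CPM in p66High aggressive tumours, against 1.35, 3.5 and 0.813 CPM in p66Low aggressive tumours. For Cyp27a1 the values were 1.88, 1.89 and 0.518 CPM, against 4.06, 7 and 3.34 CPM. Both were low, were highest in lymph-node-rich p66Low aggressive replicate 2, and had no alternative run. Macrophage and T cell markers were also lower in p66High aggressive tumours, and their part in the oxysterol and bile acid enzymes was not tested.

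With selection, 3 pathway genes passed in the same direction in both backgrounds. Srebf1, which encodes the SREBP that drives fatty acid synthesis and is itself induced by liver X receptors, had 402, 491 and 506 CPM in p66High aggressive tumours, against 793, 925 and 1290 CPM in p66High parental tumours. It had 334, 334 and 357 CPM in p66Low aggressive tumours, against 752, 1010 and 872 CPM in p66Low parental tumours. Its log2 differences were -1.10 (SE 0.17, adjusted p = 0.00443) and -1.36 (SE 0.17, adjusted p = 0.000858). Lipa, the lysosomal lipase that frees cholesterol from esters, had 75.2, 118 and 73.6 CPM in p66High aggressive tumours, against 199, 256 and 186 CPM in p66High parental tumours. In the p66Low background it had 80.2, 109 and 105 CPM in p66Low aggressive tumours, against 211, 313 and 153 CPM in p66Low parental tumours. It was lower by log2 differences of -1.26 (adjusted p = 0.0171) and -1.20 (adjusted p = 0.0104). The first failed without p66High aggressive replicates 1 or 3 or p66High parental replicate 2 or with the pairs summed (adjusted p of 0.0633 to 0.075), and the second without the lymph-node-rich libraries (adjusted p = 0.185). Stard3, a sterol carrier of late endosomes, was higher, with 94.3, 72.3 and 85.6 CPM in p66High aggressive tumours, against 44.4, 45.7 and 41 CPM in p66High parental tumours. Its p66Low values were 78.3, 82.4 and 96.1 CPM in p66Low aggressive tumours, against 45.3, 40.9 and 38 CPM in p66Low parental tumours. No aggressive tumour overlapped a parental one, and the log2 differences were 0.95 (SE 0.12, adjusted p = 0.00122) and 1.05 (SE 0.12, adjusted p = 0.000405). Stard3 lies 31.4 kb from Erbb2 on chromosome 11. Erbb2 itself did not pass in either background, with log2 differences of 0.06 (adjusted p = 0.872) and -0.15 (adjusted p = 0.634). Of the 45, 2 passed as higher with selection in p66High tumours (Stard3 and Vldlr) and 2 as lower (Srebf1 and Lipa). There 5.94% of all genes were called. In p66Low tumours 4 were higher (Stard3, Ch25h, Arl4c and Hsd3b7) and 5 lower (Srebf1, Lipa, Fnta, Rce1 and Coq2), where 16.6% of all genes were called. Vldlr no longer passed with the pairs summed (adjusted p = 0.0869), and neither Ch25h (adjusted p = 0.0823) nor Hsd3b7 (adjusted p = 0.132) passed without the lymph-node-rich libraries.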

How the data were processed

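RNA was extracted in bulk from 12 mammary tumours, 3 in each of 4 groups taken from the labels, and made into stranded libraries depleted of ribosomal RNA, per the labels' protocols. The authors deposited whole-number counts of reads in genes. Tools named in the submitters' processing notes are Trimmomatic 0.32, STAR 2.3.0e and featureCounts 1.4.4, with build mm10. Which annotation, strand option and rule for multiply mapped reads they used is not given in the sources used here, which leaves counts of overlapping genes and close paralogs uncertain.

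Members were matched by symbol, and 37607 of 39017 gene identifiers (96.4%) were found in GENCODE M21 (GRCm38, the same build as mm10), which gave positions and exon lengths. Genes were filtered with filterByExpr, scaled by TMM and tested with edgeR 4.0.16 (limma 3.58.1, R 4.3.3) by a quasi-likelihood test fitted to the 4 groups together (12 tumours, 8 residual degrees of freedom), with Benjamini-Hochberg adjustment over 19370 genes. Standard errors are the log2 difference divided by the square root of F. CPM used the TMM-scaled libraries, and RPKM is CPM per kilobase of exon. DESeq2 1.42.0 was an alternative. Scripts were tested on simulated data. The libraries held 17368192 to 76103880 counts, and 3 counts equal 0.0394 to 0.156 CPM.

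Members and lists were chosen with earlier results of these data known. Members were named where they passed in any comparison or the interaction, or were among the 2 highest or 2 lowest log2 differences of a comparison; pathway genes were named where they passed, apart from some that are not reported here. Insig1, Pmvk, Fdps, Cyp51, Npc1, Nr1h2 and the enzymes given with non-overlapping groups were named after their values were seen. Replicate numbers follow the order of accession and pair nothing. Nothing in the labels ties each tumour to its own mouse, and 2 pairs of p66High tumours share a number in their titles; p-values then reflect only how much these tumours varied. Alternatives were other scalings, no filter on low counts, only the tumours compared, tumours with a shared number in their titles summed, leaving out each tumour, leaving out the 3 lymph-node-rich libraries (lymph node stroma genes over 20 CPM) and DESeq2. No 2 tumours of a group had counts within sampling noise.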

Additional observations from a re-analysis of the deposited data

Results flagged for a closer look

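For 4 members and 2 other pathway genes the p66High against p66Low value differed between aggressive and parental tumours. The test was of that difference itself, edgeR's interaction term adjusted over all genes, which called 12.4% of all genes. For the members the log2 interaction was 0.89 for Stard4 (adjusted p = 0.0183), -1.30 for Abca1 (adjusted p = 0.0432), -1.45 for Abcg1 (adjusted p = 0.0248) and -1.88 for Nr1h3 (adjusted p = 0.0119). None of these passed without the 3 lymph-node-rich libraries, where 0 of the 29 members were called and 335 of all genes were, against 2395 with them. Without these libraries Hsd3b7 and Vldlr also missed the threshold, at -0.80 (adjusted p = 0.0637) and 0.57 (adjusted p = 0.217). Hsd3b7, an enzyme of bile acid synthesis, had a log2 interaction of -0.65 (adjusted p = 0.012), with 53.1, 53.1 and 50.5 CPM in p66High aggressive tumours, against 67.7, 71.1 and 79.7 CPM in p66Low aggressive tumours, and 62.3, 71.9 and 62.5 CPM in p66High parental tumours, against 58.7, 54.1 and 62.3 CPM in p66Low parental tumours. Vldlr, a lipoprotein receptor, had a log2 interaction of 1.03 (adjusted p = 0.0183), with 171, 196 and 214 CPM in p66High aggressive tumours, against 120, 118 and 183 CPM in p66Low aggressive tumours, and 114, 126 and 99.3 CPM in p66High parental tumours, against 168, 182 and 153 CPM in p66Low parental tumours. Groups of 3 tumours were too small for a search for single outlying tumours.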

How the results depend on the processing

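Alternatives were run for the calls and extreme values of members that the naming rule picked and, added after seeing the data, for the calls of Icmt, Ch25h, Srebf1, Lipa, Stard3, Hsd3b7 and Vldlr. None of these changed direction while called; 642 values kept their side of the threshold, 116 lost it and 16 gained it. The number of members called in p66High against p66Low parental tumours was 4, and it was 1 with tumours of shared title numbers summed and 7 with DESeq2; leaving out 1 tumour gave 1 to 12, with 1 without p66High parental replicate 1 or p66Low parental replicates 1 or 3, 2 without p66High parental replicate 2, 7 without p66Low aggressive replicate 3 and 12 without p66Low parental replicate 2. In aggressive tumours it was 2, and it was 1 when chromosomes 1 and 15 were kept out of the scaling, 0 without the lymph node libraries and 1 with shared titles summed; leaving out 1 tumour gave 1 to 4, with 4 without p66Low aggressive replicate 3 and 1 without replicates 1 or 3 of p66High aggressive, 1 or 2 of p66Low aggressive, 1 of p66High parental or 1 of p66Low parental. For selection in p66Low tumours it was 4, and it was 1 without the lymph node libraries and 2 in a fit of the 6 tumours alone; leaving out 1 tumour gave 1 to 8, with 1 without p66Low aggressive replicate 2 or p66Low parental replicate 3 and 8 without p66Low parental replicate 2. For selection in p66High tumours it was 2, and it was 1 with median-of-ratios scaling, 1 with no filter, 1 without the lymph node libraries, 0 with shared titles summed, 4 in a fit of the 6 tumours alone and 5 with DESeq2; leaving out 1 tumour gave 0 to 4, with 0 without p66High aggressive replicates 1 or 3 or p66High parental replicate 2, 1 without p66High aggressive replicate 2, p66High parental replicates 1 or 3 or p66Low parental replicate 1, and 4 without p66Low parental replicate 2. For the interaction it was 4, and it was 0 without the lymph node libraries and 1 with shared titles summed; leaving out 1 tumour gave 1 to 8, with 1 without p66High aggressive replicate 3, p66High parental replicate 2 or p66Low parental replicates 1 or 3, 2 without p66Low aggressive replicate 2 or p66High parental replicate 1, and 8 without p66Low parental replicate 2. Counts over all genes moved too: leaving out 1 tumour gave 871 to 1927, 2438 to 4502, 1545 to 3505, 457 to 1469 and 1179 to 3278 in that order, the sums of shared titles 908, 3130, 3044, 305 and 1179, and the fits without the lymph node libraries 838, 1075, 705, 586 and 335, against 1565, 4077, 3221, 1150 and 2395. Leaving out tumours or summing them lowers the number of samples, and the lone p66Low aggressive tumour left without the lymph node libraries is assumed to vary like the other groups. The members' median turned to -0.03 in p66High against p66Low aggressive tumours (0.05 as reported) under library size scaling or without p66High aggressive replicate 3, and to 0.04 for selection in p66Low tumours (-0.07 as reported) under that scaling or without p66Low parental replicate 1. No paired analysis was possible because the groups share no replicate numbers in the labels. With 3 tumours a group, a difference that misses the threshold is not shown to be absent.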
